A study of Mus musculus with 24 samples.

Results

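The 10 genes Agxt, Hao1, Hao2, Grhpr, Hoga1, Pgp, Agxt2, Prodh2, Slc26a1 and Slc26a6 encode enzymes that make or remove glyoxylate and transporters that carry oxalate. They were chosen by symbol, and each symbol matched 1 of the 55335 genes counted in every kidney. All 10 reached the minimum for testing of 1 CPM (read counts scaled to a common library total) in at least 1 kidney, among 16092 genes that did. Agxt and Hao1 reached it only in male kidneys that also held a high level of the liver transcript Alb.

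RNA of whole kidneys came from 24 adult mice on the C57BL/6J background, in sets of 6, namely male and female controls (Ctrlm, Ctrlf) and male and female knockouts (cKOm, cKOf). The floxed Pex5 lox/lox alleles were carried by all mice, and cKO mice of each sex also carried the transgenes Pax8-rtTA and LC1, which delete Pex5 in cells of the renal tubule under doxycycline (DOX). At 8 weeks of age both cKO mice and their littermate controls began a DOX course that lasted 2 weeks, and kidneys were taken 4 weeks after its end. The deletion was aimed at the tubule, whereas reads came from all cells of the kidney. Reads assigned to genes numbered from 19376152 to 28470831 per kidney. At this depth 3 counts, taken as the floor of detection for counting error alone, were between 0.0959 and 0.157 CPM.

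Glyoxylate is a reactive intermediate that lactate dehydrogenase can oxidize to oxalate, an end product that is removed in urine and forms crystals with calcium. In liver, glycolate oxidase makes glyoxylate inside peroxisomes and alanine-glyoxylate aminotransferase turns it into glycine there, while the breakdown of hydroxyproline releases glyoxylate in mitochondria of liver and proximal tubule. Pex5 is the receptor that recognises a signal at the carboxyl end of many peroxisomal enzymes and brings them into the organelle, so the deletion bears on where such enzymes are placed, whereas RNA levels report only on transcripts.

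Of the enzymes listed, those of Agxt, Hao1 and Hao2 are known to occur in peroxisomes, though not necessarily only there. Their last coding bases are shown because Pex5 reads the 3 residues they encode. The sequences were read from GENCODE transcripts of GRCm38, with the last 3 codons in capitals followed by the stop codon.
Agxt, chr1:93145153-93145167, plus strand: aagAACAAGTTGtga
Hao1, chr2:134498257-134498271, minus strand: gttTCCAAGATCtga
Hao2, chr3:98875309-98875323, minus strand: ttcTCCAGATTAtaa
The 3 genes ended in different codons, and coding sequences of 414, 370 and 353 codons before the stop preceded them in this order.

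Promoters of Hao2 and Prodh2 are shown because these were the members with the higher level in females, as described below. RefSeq (GRCm38.p6) gave promoters for 10 of the 10 genes, each from 250 bases before to 50 bases after a start. The stretches run from 250 to 37 bases before the start, and capitals mark matches to any of 5 motifs searched on both strands.
Hao2, chr3:98893267-98893480, minus strand: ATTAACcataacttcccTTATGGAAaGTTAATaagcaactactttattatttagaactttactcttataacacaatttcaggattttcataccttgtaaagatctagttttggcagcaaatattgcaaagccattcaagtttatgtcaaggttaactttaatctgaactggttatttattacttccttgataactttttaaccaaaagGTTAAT
Prodh2, chr7:30493408-30493621, plus strand: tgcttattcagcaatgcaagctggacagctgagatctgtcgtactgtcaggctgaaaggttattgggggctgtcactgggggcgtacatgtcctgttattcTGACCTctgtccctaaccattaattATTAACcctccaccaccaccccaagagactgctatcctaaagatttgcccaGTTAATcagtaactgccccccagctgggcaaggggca
The motifs were the E-box CACGTG, the D-box TTATGNAA, and half-sites of HNF1 (GTTAAT), of nuclear receptors (AGGTCA) and of the androgen receptor (AGAACA). The HNF1 half-site occurred 3 times in the Hao2 promoter, 2 times in that of Prodh2 and 1 time in that of Hoga1, and 7.099% of 32851 promoters held it. Hao2 also held the D-box, found in 3.385% of promoters. A nuclear receptor half-site, present in 16.26% of promoters, was found for Prodh2, Agxt2 and Slc26a1. The E-box (7.15% of promoters) was found for Slc26a1, and the androgen receptor half-site (18.97%) for Slc26a1 and Agxt. The shares count single promoters, whereas Agxt2 and Slc26a1 had 2 each. The Slc26a1 matches all lay in its promoter 2, and the Agxt2 match lay in both of its promoters, which overlap. These are matches of letters only, and Grhpr, Hao1, Pgp and Slc26a6 had none of the 5.

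Levels of different genes were compared per length, as RPKM over the exons of each gene. In Ctrlm kidneys Hao2 was highest at 151 ± 31.9 RPKM (SD, n = 6 here and for each mean below), and its range did not overlap that of the next gene. Hoga1 followed at 73.5 ± 9.04, then Grhpr at 65.5 ± 12.0, Slc26a1 at 47.8 ± 4.97 and Agxt2 at 33.1 ± 5.67 RPKM. Neighbours from Hoga1 to Agxt2 overlapped in their ranges, so the order of adjacent genes was within the spread between mice. Genes further apart did not overlap. The lowest Hoga1 value (63.9 RPKM) was above the highest of Slc26a1 (53.8), and the lowest of Grhpr (49.1) above the highest of Agxt2 (40.8). Prodh2 (13.6 ± 4.07 RPKM) and Pgp (7.79 ± 1.35) were lower and overlapped each other. Slc26a6 stood at 1.05 ± 0.262 RPKM, Agxt at 0.619 ± 0.656 and Hao1 at 0.399 ± 0.304, again with overlap between neighbours. In Ctrlf kidneys Hao2 reached 422 ± 34.8 RPKM, and Prodh2, at 26.3 ± 5.34, moved next to Agxt2, at 25.3 ± 4.21. Hao2 was the highest of the 10 in each of the 4 groups. Agxt and Hao1 had the lowest means, and their ranges overlapped in all 4 groups.

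**Figure D1:**
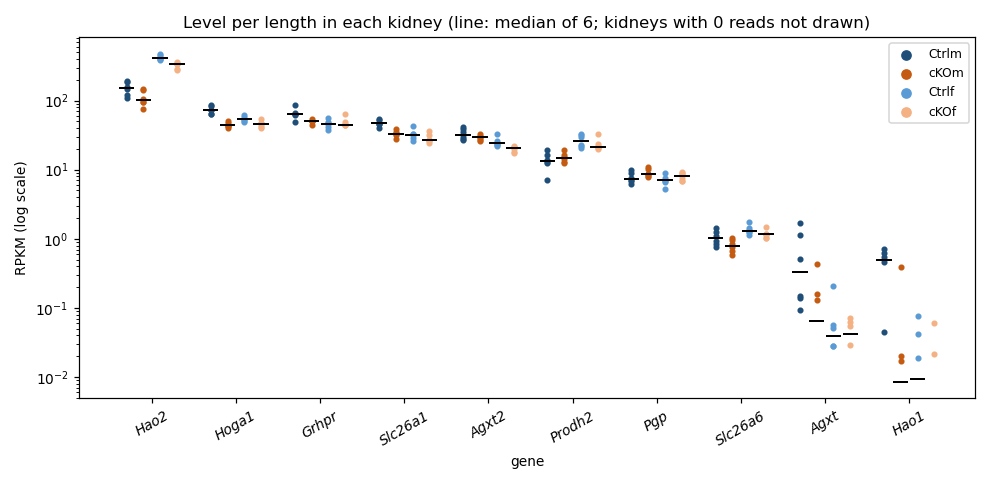
Level per length (RPKM, log scale) of the 10 genes in each of 24 kidneys, by group, with a line at the median of 6 mice and kidneys without reads left out. Hao2 lies above the other genes in every group, and Agxt and Hao1 lie at the bottom with the widest spread.

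The gene targeted by the deletion was checked first. Pex5 RNA, counted over all exons and all cells, was 54.3 ± 4.63 CPM in Ctrlm and 43.7 ± 1.94 CPM in cKOm mice (log2 fold change -0.31, standard error (SE) 0.08, adjusted p = 0.0219 by edgeR), and these groups did not overlap. In females it was 50.3 ± 6.97 and 43.6 ± 3.55 CPM with overlapping groups (log2 fold change -0.21, adjusted p = 0.177). The Pex5 change was not shown to differ between the sexes (adjusted p = 0.754 for the interaction of genotype and sex). These counts do not separate full-length Pex5 from a deleted form, so they do not measure excision. In cKOf kidneys the paper reports residual full-length Pex5 RNA and PEX5 protein, and it proposes that excision was incomplete there. Sex and the extent of deletion therefore cannot be told apart in comparisons of the male and female changes.

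Liver RNA in the kidney samples bears on Agxt and Hao1, whose enzymes are made mainly in liver. Alb, the albumin gene of hepatocytes, lay between 224 and 662 CPM in 5 kidneys, namely Ctrlm 1 to 4 and cKOm 4, and between 15.1 and 60.2 CPM in the other 19. The mean log2 level of 15 hepatocyte genes was 3.58 ± 1.63 in Ctrlm and 1.49 ± 1.55 in cKOm kidneys, a difference of -2.09 (two-sided exact permutation test p = 0.0476, where the smallest possible value was 0.00216). Of the 15 genes, 3 passed the threshold in males, lower in cKOm kidneys (Alb, Apoa2 and Fgg), and 0 in females. In females the difference in mean was -0.19 (exact permutation p = 0.686). The summed level of these genes ranged from 119 to 1032 CPM in Ctrlm, from 94.9 to 570 in cKOm, from 87.6 to 137 in Ctrlf and from 64.1 to 153 in cKOf kidneys, and no marker was at 0 throughout a group. The male call on hepatocyte genes was lost when any of the kidneys Ctrlm 1 to 4 or cKOm 1, 2, 3, 5 or 6 was left out, with differences from -2.67 to -1.82 over all single kidneys left out.

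Hao1 and Agxt reads were concentrated in the kidneys with most Alb. The 5 kidneys with over 200 CPM of Alb held between 18 and 32 Hao1 reads, and the other 19 held between 0 and 4, with none in 11 of them. Agxt had between 5 and 58 reads in the 5 kidneys and between 0 and 8 in the others. In all, 83.0% of the 336 reads on either gene came from these 5 kidneys. In the remaining 19, Hao1 reached the floor of 3 counts in 2 kidneys and Agxt in 7.

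**Figure D2:**
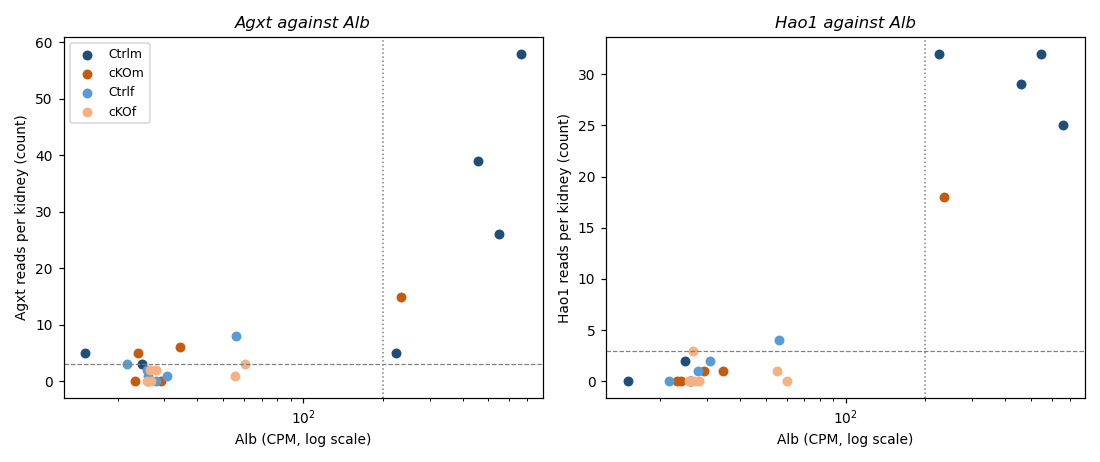
Reads of Agxt (left) and Hao1 (right) in each of 24 kidneys against the level of Alb (CPM, log scale), by group. The dotted line marks 200 CPM of Alb and the dashed line the floor of 3 counts, and the 5 kidneys right of the dotted line, 4 Ctrlm and 1 cKOm, hold between 18 and 32 Hao1 reads against at most 4 elsewhere.

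In kidneys of males, 3 of the 10 genes fell and none rose at an adjusted p under 0.05, Hoga1, Slc26a1 and Grhpr. Among all tested genes 9.05% passed this threshold in males, 4.9% lower and 4.14% higher. Agxt and Hao1 reached the minimum for testing only through Ctrlm kidneys, which fixed the direction of their change in advance, so they are left out of the counts that follow. Of the other 8 genes, 5 had a p under 0.05 before adjustment, and 6 fold changes were below 0. The shares of all tested genes with such a p or such a direction were not counted, so these counts cannot be set against them. The median log2 fold change was -0.39 over these 8 genes and 0.01 over all tested genes. Hoga1 and Slc26a1 were the 2 whose groups did not overlap, a state that 3.69% of all tested genes met with the cKO group lower and 7.38% met in either direction. In whole kidney, fewer cells of a type and less RNA per cell cannot be told apart.

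Markers of the proximal tubule moved in the same comparison. Of 9 such genes 5 passed the threshold lower in cKOm kidneys, as did 4.9% of all tested genes. The 5 were Lrp2, Slc34a1, Aqp1, Slc22a6 and Fbp1, with log2 fold changes from -0.65 to -0.33. The other 4 did not pass and had log2 fold changes of -0.17 (Cubn), 0.10 (Slc5a2), 0.13 (Slc4a4) and 0.63 (Slc5a12, adjusted p = 0.0512, with every cKOm kidney above every Ctrlm kidney). The summed level of all 9 lay between 10087 and 11388 CPM in Ctrlm and between 8381 and 9393 CPM in cKOm kidneys. In females 0 of the 9 passed the threshold, and the sums overlapped (10258 to 11929 in Ctrlf and 8691 to 10682 CPM in cKOf). The summed level of 2 markers of the thick ascending limb lay between 3140 and 3982 CPM in Ctrlm and between 3761 and 4408 CPM in cKOm kidneys. The part of these markers in the results below was not tested.

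Prodh2 and Hoga1 act in the breakdown of hydroxyproline, the first as the dehydrogenase that opens it and the second as the aldolase that releases glyoxylate and pyruvate. Hoga1, which lies on chromosome 19 from 42045610 to 42070953, ranged from 144 to 194 CPM in Ctrlm (median 163) and from 89.4 to 115 CPM in cKOm kidneys (median 99.6). Every cKOm kidney was below every Ctrlm kidney. The mean was 166 ± 20.4 in Ctrlm and 101 ± 8.91 CPM in cKOm mice, a log2 fold change of -0.71 (SE 0.09, adjusted p = 3.9e-06). In females Hoga1 ranged from 111 to 141 CPM in Ctrlf (median 121) and from 91.7 to 124 CPM in cKOf kidneys (median 103), and the groups overlapped. The log2 fold change there was -0.25 (SE 0.09, adjusted p = 0.106), and leaving out cKOf 6, the highest cKOf kidney, brought the adjusted p to 0.0258.

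The male and the female change of Hoga1 differed at the edge of the threshold (log2 difference -0.46, SE 0.12, adjusted p = 0.0469 for the interaction). Hoga1 was the 1 gene of the 10 past that threshold, which 2.31% of all tested genes passed (1.49% with the lower male change, as for Hoga1, and 0.82% with the higher). The call held when Ctrlm 1, Ctrlm 6, cKOm 2, Ctrlf 4, Ctrlf 5, cKOf 2 or cKOf 3 was left out and was lost without any of the other 17 kidneys, with adjusted p from 0.0185 to 0.0917. It was also lost with limma-voom (adjusted p = 0.0539) and without the 5 kidneys with most Alb (adjusted p = 0.150).

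Prodh2 did not pass the threshold in either sex. It ranged from 17.3 to 47.0 CPM in Ctrlm (median 32.6) and from 30.7 to 46.8 in cKOm kidneys (median 36.2), with a log2 fold change of 0.14 (adjusted p = 0.770). In females it ranged from 49.98 to 79.6 CPM in Ctrlf (median 63.9) and from 49.5 to 81.8 CPM in cKOf kidneys (median 53.1), with a log2 fold change of -0.17 (adjusted p = 0.708). The groups overlapped in both comparisons.

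Hao2 encodes a peroxisomal hydroxyacid oxidase of the kidney that acts on longer chains than glycolate oxidase. In males Hao2 ranged from 226 to 388 CPM in Ctrlm (median 309) and from 155 to 299 CPM in cKOm kidneys (median 207), and the groups overlapped. The log2 fold change was -0.45 (SE 0.14, adjusted p = 0.0579), just short of the threshold. Hao2 passed it with DESeq2 (adjusted p = 0.0136), with RLE scaling (0.0436), with each other filter (0.0417 and 0.0425) and with adjustment within each contrast (0.0319). It also passed when Ctrlm 1, Ctrlm 3, cKOm 1, cKOm 6, Ctrlf 4 or Ctrlf 5 was left out (0.0182 to 0.0458). It did not pass in the other 23 of 34 alternatives, among them the replicate block (0.0891), the hepatocyte covariate (0.233) and the fit without the 5 kidneys with most Alb (0.243). In females Hao2 ranged from 790 to 976 CPM in Ctrlf (median 846) and from 561 to 727 CPM in cKOf kidneys (median 695), so every cKOf kidney was below every Ctrlf kidney. The log2 fold change was -0.38 (SE 0.14, adjusted p = 0.122), and it passed the threshold when females alone were fitted (adjusted p = 0.0111).

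Hao1, which encodes glycolate oxidase, ranged from 0 to 1.64 CPM in Ctrlm (median 1.14) and from 0 to 0.880 CPM in cKOm kidneys (median 0.0195). In males its log2 fold change was -2.50 (SE 0.95, adjusted p = 0.153). Its largest value in cKOm mice was that of cKOm 4, and without this kidney the edgeR adjusted p was 0.00397. That fit kept 4 Ctrlm kidneys with over 200 CPM of Alb and no such cKOm kidney. Genotype and liver RNA cannot be told apart in it. The 2 Ctrlm kidneys with little Alb held 0 and 2 Hao1 reads, and the 5 such cKOm kidneys held 0 or 1. In females Hao1 reached 0.177 CPM in Ctrlf and 0.140 CPM in cKOf kidneys at most, with no difference detectable at this depth (log2 fold change -0.60, adjusted p = 0.907).

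Agxt encodes the aminotransferase that turns glyoxylate into glycine. It ranged from 0.156 to 2.86 CPM in Ctrlm (median 0.557) and from 0 to 0.733 CPM in cKOm kidneys (median 0.112), with a log2 fold change of -2.34 (SE 0.84, adjusted p = 0.120). Without cKOm 4 the edgeR adjusted p was 0.0340, in the fit where only Ctrlm kidneys held over 200 CPM of Alb. Genotype and liver RNA cannot be told apart there either. Among kidneys with little Alb, 2 Ctrlm mice held 3 and 5 reads and 5 cKOm mice held 0 to 6, so the groups overlapped. With the hepatocyte level as a covariate, the log2 fold changes in males were -0.68 for Agxt (adjusted p = 0.831) and -0.39 for Hao1 (0.915). In females Agxt was at most 0.354 CPM in Ctrlf and 0.120 CPM in cKOf kidneys (log2 fold change -0.72, adjusted p = 0.835). With Ctrlf 2 left out, the female log2 fold changes were 0.09 for Agxt and 0.24 for Hao1.

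Grhpr encodes a reductase of glyoxylate and hydroxypyruvate. Grhpr ranged from 78.7 to 138 CPM in Ctrlm (median 103) and from 72.0 to 87.9 CPM in cKOm kidneys (median 80.9). The cKOm values lay close together, and the groups overlapped through Ctrlm 4, the lowest Ctrlm kidney. The mean was 105 ± 19.2 in Ctrlm and 80.6 ± 5.11 CPM in cKOm mice, a log2 fold change of -0.38 (SE 0.11, adjusted p = 0.0460). The call held when Ctrlm 4, Ctrlm 6, Ctrlf 1, Ctrlf 3, Ctrlf 4, Ctrlf 5 or cKOf 6 was left out and was lost without any of the other 17 kidneys, with adjusted p from 0.0116 to 0.144, the highest without Ctrlm 5. It was lost with limma-voom (log2 fold change -0.36, adjusted p = 0.0559) and with the hepatocyte covariate (log2 fold change -0.45, adjusted p = 0.0740).
In females Grhpr ranged from 59.3 to 89.2 CPM in Ctrlf (median 73.5) and from 70.0 to 103 CPM in cKOf kidneys (median 72.1), with a log2 fold change of 0.08 (adjusted p = 0.800). Without cKOf 6, which was highest, the fold change turned to -0.01. The male and female changes of Grhpr were not shown to differ (log2 difference -0.47, adjusted p = 0.146).

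Agxt2 encodes a mitochondrial aminotransferase that can use glyoxylate as an amino acceptor. Agxt2 ranged from 85.8 to 129 CPM in Ctrlm (median 102) and from 80.9 to 104 CPM in cKOm kidneys (median 93.1), with a log2 fold change of -0.18 (adjusted p = 0.429). In females it ranged from 68.5 to 105 CPM in Ctrlf (median 76.3) and from 55.5 to 69.2 CPM in cKOf kidneys (median 65.2). The female groups overlapped by their ends, with a log2 fold change of -0.34 (SE 0.11, adjusted p = 0.0710). DESeq2 gave an adjusted p of 0.0423 for this change, and without Ctrlf 6 it was 0.0472.

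Pgp encodes a phosphatase that removes phosphoglycolate and yields glycolate. Pgp ranged from 17.1 to 26.4 CPM in Ctrlm and from 21.3 to 29.6 CPM in cKOm kidneys (log2 fold change 0.22, adjusted p = 0.420). In females the ranges were 14.5 to 24.01 CPM in Ctrlf and 18.4 to 25.1 CPM in cKOf (log2 fold change 0.18, adjusted p = 0.536). The groups overlapped in both sexes.

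The transporters differ in the membrane they serve. Slc26a1 is a basolateral exchanger of sulfate and oxalate in the proximal tubule, and Slc26a6 an apical exchanger of chloride and oxalate. Slc26a1, on chromosome 5 from 108669878 to 108675569, ranged from 164 to 218 CPM in Ctrlm (median 190) and from 111 to 155 CPM in cKOm kidneys (median 134). No cKOm kidney reached the lowest Ctrlm kidney. The mean was 193 ± 20.1 in Ctrlm and 134 ± 15.2 CPM in cKOm mice, a log2 fold change of -0.53 (SE 0.11, adjusted p = 0.00318). In females Slc26a1 ranged from 105 to 173 CPM in Ctrlf (median 130) and from 97.4 to 148 CPM in cKOf kidneys (median 108), with a log2 fold change of -0.17 (adjusted p = 0.502). Its male and female changes were not shown to differ (log2 difference -0.36, adjusted p = 0.308).

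Slc26a6 was expressed at a far lower level. It ranged from 4.09 to 7.75 CPM in Ctrlm (median 5.48) and from 3.13 to 5.48 CPM in cKOm kidneys (median 4.27), with a log2 fold change of -0.40 (SE 0.17, adjusted p = 0.202). In females the ranges were 6.05 to 9.41 CPM in Ctrlf and 5.55 to 8.08 CPM in cKOf, with a log2 fold change of -0.21 (adjusted p = 0.590). Slc26a6 groups overlapped in both sexes.

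**Figure D3:**
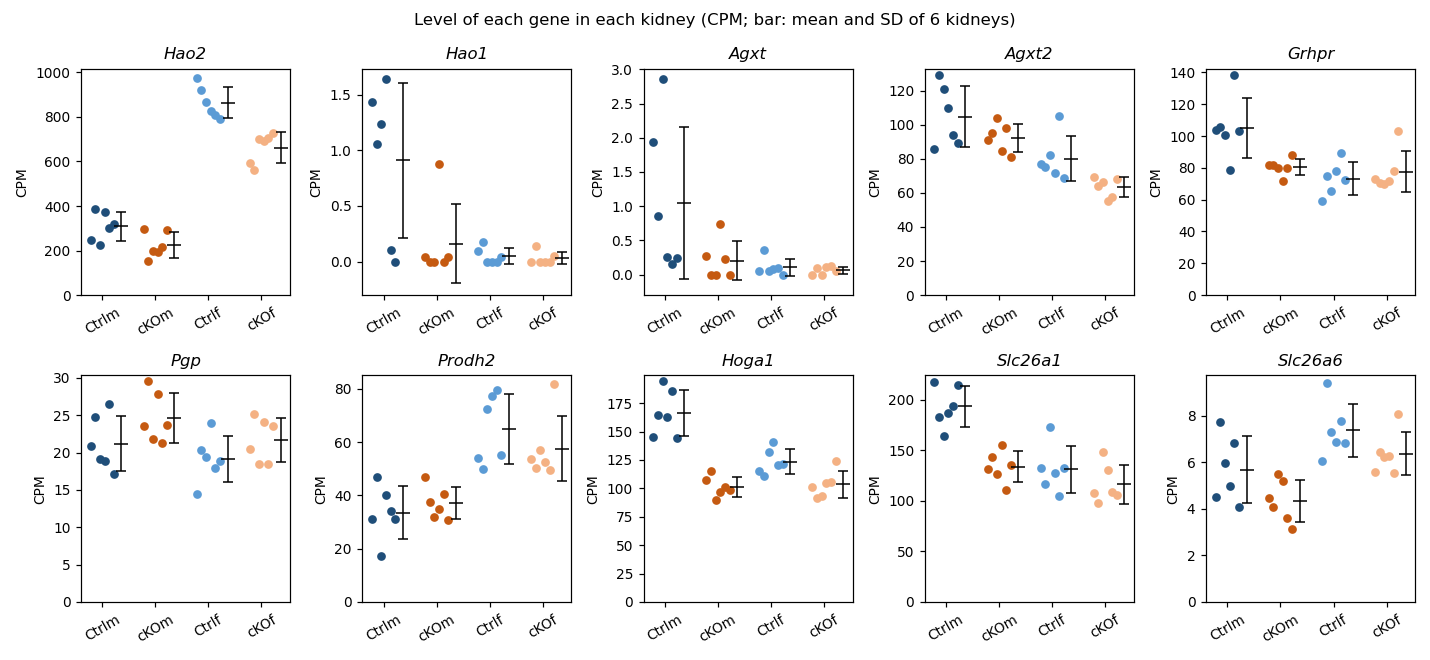
Level of each of the 10 genes (CPM) in each of 24 kidneys, by group, with the mean and SD of 6 mice as a bar beside the points. For Hoga1 and Slc26a1 all cKOm points lie below all Ctrlm points, for Hao2 all cKOf points lie below all Ctrlf points, and for Agxt and Hao1 a few male kidneys stand above the rest.

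The calls on Hoga1 and Slc26a1 in males were kept under all 34 alternatives, with adjusted p of at most 0.00188 for Hoga1 and 0.0172 for Slc26a1. Without the 5 kidneys with most Alb, which left 2 Ctrlm and 5 cKOm mice, Hoga1, Slc26a1 and Grhpr were each lower in cKOm kidneys, and Agxt and Hao1 were then too low to be tested. In these mice Hoga1 lay between 144 and 186 CPM in Ctrlm and between 89.4 and 115 CPM in cKOm kidneys. Slc26a1 lay between 194 and 214 and between 111 and 143 CPM, and Grhpr between 103 and 138 and between 80.0 and 87.9 CPM. The lack of overlap in these mice is no added result, since Hoga1 and Slc26a1 had no overlap among all male kidneys. The overlap of Grhpr had come through Ctrlm 4 alone, a kidney left out here.

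In females none of the 10 genes passed the threshold by edgeR, against 0.851% of all tested genes (0.391% higher and 0.46% lower). Before adjustment Hao2, Hoga1 and Agxt2 had a p under 0.05, and the share of all tested genes with such a p was not counted. Of the 10 genes limma-voom called 0 and DESeq2 called 1, Agxt2, where they called 133 and 188 of 16092 tested genes. The median log2 fold change was -0.19 over the 8 genes other than Agxt and Hao1 and 0.00 over all tested genes. Hao2 was the 1 gene of the 10 whose groups did not overlap, a state met by 0.292% of all tested genes with the cKO group lower, by 0.267% with it higher and by 0.559% in either direction.

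**Figure D4:**
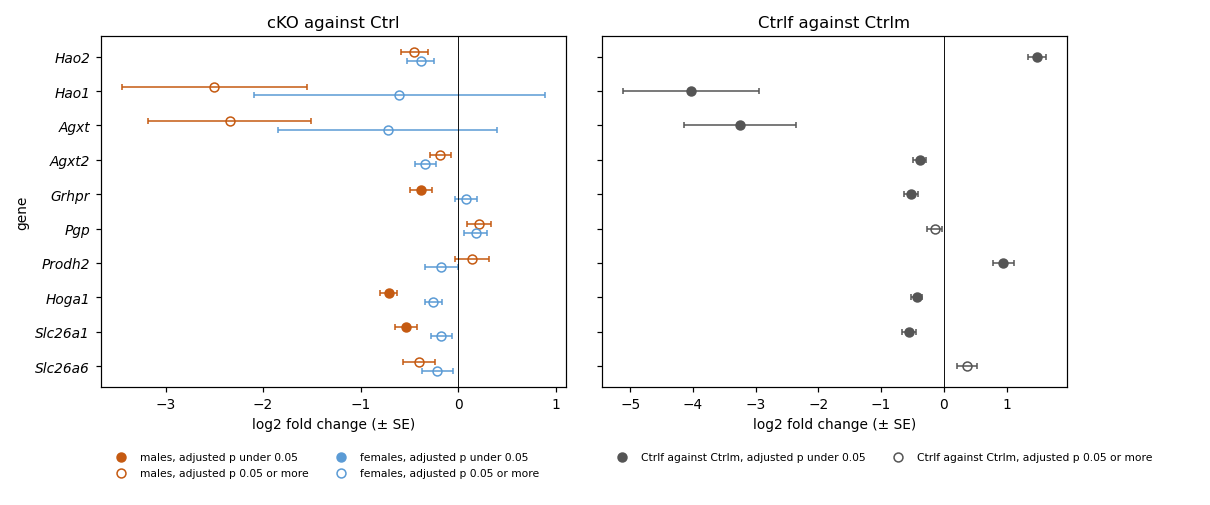
Log2 fold change with its SE for the 10 genes, cKO against Ctrl in males and females (left) and Ctrlf against Ctrlm (right), with filled points for an adjusted p under 0.05. Hoga1, Slc26a1 and Grhpr are filled below 0 in males, no gene is filled in the female comparison of genotypes, and Hao2 and Prodh2 are filled above 0 between the sexes.

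Between Ctrlf and Ctrlm, 6 of the 8 genes other than Agxt and Hao1 passed the threshold, 2 higher and 4 lower in Ctrlf kidneys, against 16.8% (8.11% higher and 8.71% lower) among all tested genes. Hao2 was higher in females by 1.49 on the log2 scale (SE 0.14, adjusted p = 6.6e-09), and Prodh2 by 0.95 (SE 0.17, adjusted p = 2.0e-04). For both genes every Ctrlf kidney was above every Ctrlm kidney, as for 3.4% of all tested genes. Hoga1 was lower in females by a log2 fold change of -0.43 (adjusted p = 7.7e-04) without overlap, as were 3.95% of all tested genes (7.35% did not overlap in either direction). Slc26a1 (-0.56, adjusted p = 5.6e-04), Grhpr (-0.52, adjusted p = 0.00141) and Agxt2 (-0.39, adjusted p = 0.0113) were lower in females with overlapping groups.
Agxt (-3.25, adjusted p = 0.0112) and Hao1 (-4.03, adjusted p = 0.00932) also passed, but they were tested only because Ctrlm kidneys reached 1 CPM, so that this direction was fixed by the filter, and Alb was lower in Ctrlf kidneys too (log2 fold change -3.36). With the hepatocyte level as a covariate the log2 fold change of Agxt was -0.75 (adjusted p = 0.720) and that of Hao1 turned to 0.33 (adjusted p = 0.852), whereas the log2 fold change of Agxt2 was the same to 2 decimals (-0.39) and its adjusted p was 0.0818. Without the 5 kidneys with most Alb, Hao2, Prodh2, Grhpr, Hoga1 and Slc26a1 still differed between the sexes. Agxt2 did not pass without them, with a smaller log2 fold change of -0.22 (adjusted p = 0.374). Pgp (-0.15, adjusted p = 0.490) and Slc26a6 (0.37, adjusted p = 0.127) did not pass the threshold, and Slc26a6 passed it without Ctrlm 2 (adjusted p = 0.0415).

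By mean level, Hoga1 was highest in Ctrlm, followed without overlap by Ctrlf and then by cKOf and cKOm with overlapping ranges. Slc26a1 was highest in Ctrlm, and cKOm, Ctrlf and cKOf followed it with ranges that overlapped each other. Hao2 was highest in Ctrlf, then cKOf, then Ctrlm, each without overlap with the next, and cKOm overlapped with Ctrlm. Prodh2 was higher in the 2 female groups than in the 2 male groups, without overlap between the sexes. The ranges of neighbouring groups overlapped for Grhpr, Agxt2, Pgp and Slc26a6.

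Genes that share exons with a member in the annotation were examined, since the setting of strand in counting is not given in the sources used here. Idua, on the opposite strand, shared 141 exonic bases with Slc26a1, which were 3.48% of its exons. Idua did not pass the threshold in males (log2 fold change 0.39, adjusted p = 0.113). On the same strand, 4933411K16Rik shared 1.9% of the exons of Hoga1 and had between 14 and 79 reads per kidney. Gm21973 shared 4.9% of the exons of Agxt2 and had 0 reads in all kidneys.

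Other genes of the surrounding pathways were taken from a list of 58 in 7 groups, of which 55 were tested. In males 23 of the 55 passed the threshold, 6 higher and 17 lower, with a median log2 fold change of -0.20. Of all tested genes 9.05% passed (4.14% higher and 4.9% lower). Without the 5 kidneys with most Alb, 12 passed, 1 higher and 11 lower, where 599 of 15955 tested genes passed (172 higher and 427 lower). Of the male changes named here, those of Gpt2, Pipox, Psat1, Slc6a20b, Slc25a10, Slc26a4, Cat, Pex5 and Spp1 did not pass in that fit. In females 4 of the 55 passed, 1 higher and 3 lower, with a median of -0.04, where 0.851% of all tested genes passed (0.391% higher and 0.46% lower). These shares by sex and direction are the background for the counts of each group below.

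The group of glycerate, pyruvate and lactate enzymes had 7 of 8 genes lower in cKOm kidneys and none higher, against 4.9% lower and 4.14% higher among all tested genes. Ldhd, a dehydrogenase of D-lactate, ranged from 834 to 1365 CPM in Ctrlm and from 348 to 498 CPM in cKOm kidneys without overlap (log2 fold change -1.43, SE 0.11, adjusted p = 1.2e-09). Hyi, a hydroxypyruvate isomerase, had a log2 fold change of -0.84 (adjusted p = 9.0e-07) and Pcx, pyruvate carboxylase, one of -0.51 (adjusted p = 3.6e-05). Gpt2, which transfers the amino group of alanine, was lower as well (-0.40). Gpt, its cytosolic relative (-1.22), Ldha, which can oxidize glyoxylate to oxalate, and Glyctk, glycerate kinase, were named after their values were seen. Ldha ranged from 247 to 363 CPM in Ctrlm and from 207 to 232 CPM in cKOm kidneys (log2 fold change -0.55, adjusted p = 7.8e-04), and Glyctk had a log2 fold change of -0.56 (adjusted p = 1.7e-04). In females 1 of the 8 was lower, Gpt2, which ranged from 79.0 to 120 CPM in Ctrlf and from 43.6 to 66.2 CPM in cKOf kidneys (log2 fold change -0.75, adjusted p = 5.3e-05).

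Of 14 tested genes of glycine and serine conversion, 3 were lower and 3 higher in cKOm kidneys. Those lower were Dmgdh, which demethylates dimethylglycine (log2 fold change -0.67, adjusted p = 2.6e-05), Shmt2, the mitochondrial serine hydroxymethyltransferase (-0.70, adjusted p = 1.6e-04), and Pipox, a peroxisomal oxidase of sarcosine and pipecolate (-0.56, adjusted p = 3.0e-04). Psat1, an enzyme of serine synthesis, rose in both sexes. Psat1 ranged from 25.5 to 36.3 CPM in Ctrlm and from 42.7 to 48.6 CPM in cKOm kidneys (log2 fold change 0.59, adjusted p = 0.00397), and in females its log2 fold change was 0.52 (adjusted p = 0.0127).

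Of 9 genes of hydroxyproline and proline breakdown, 3 were lower and 1 higher in cKOm kidneys, and none passed in females. Pepd, the peptidase that frees proline and hydroxyproline from dipeptides, ranged from 177 to 238 CPM in Ctrlm and from 105 to 135 CPM in cKOm kidneys (log2 fold change -0.84, adjusted p = 2.1e-07). Slc6a20a, an imino acid transporter, rose (log2 fold change 0.83, adjusted p = 1.7e-04) and its neighbour Slc6a20b fell (-0.33, adjusted p = 0.00829). Slc6a20a and Slc6a20b are close copies of each other, so the split of reads between them is uncertain. Aldh4a1, named after its values were seen, was the other gene lower (-0.39, adjusted p = 0.0374).

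Of 12 tested transporters of oxalate, sulfate and dicarboxylates, 2 were lower and 1 higher in males and 2 lower in females. Slc4a1, an anion exchanger of red cells and intercalated cells, was lower in both sexes (log2 fold change -0.68 in males, adjusted p = 0.00259, and -0.70 in females, adjusted p = 0.00172). Slc25a10, the mitochondrial dicarboxylate carrier, fell in males (-0.46, adjusted p = 0.00686) and Slc26a4, an anion exchanger of intercalated cells, rose (0.47, adjusted p = 0.00686). Slc13a1, the apical sulfate transporter, fell in females (-0.71, adjusted p = 0.00456) and had -0.28 in males (adjusted p = 0.412).

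Of 4 peroxisomal partners, catalase (Cat, log2 fold change -0.31, adjusted p = 0.00478) and Pex5 were lower in cKOm kidneys, and none passed in females. None of 3 genes of glyoxal breakdown passed in either sex. Of 5 genes whose proteins bind oxalate crystals in urine, Spp1, which encodes osteopontin, was higher in cKOm kidneys (log2 fold change 0.69, adjusted p = 0.00178), and its groups overlapped.

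**Figure D5:**
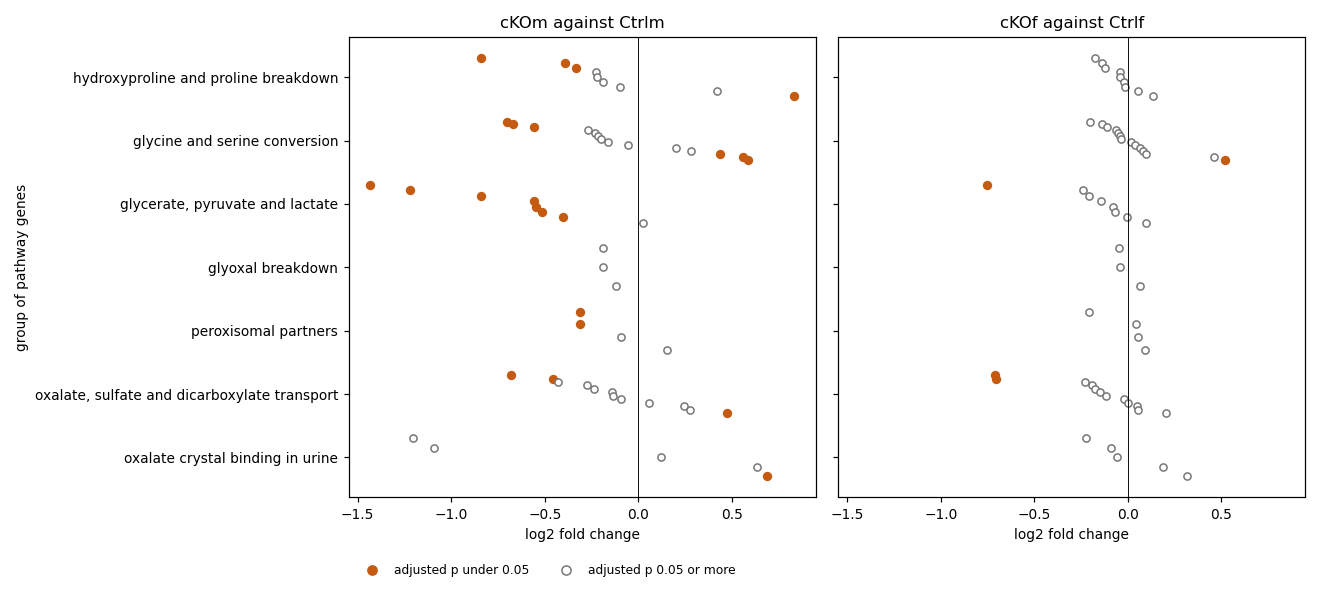
Log2 fold change of 55 tested genes of the surrounding pathways in males (left) and females (right), by group, with filled points for an adjusted p under 0.05. In the group of glycerate, pyruvate and lactate enzymes 7 of 8 points are filled below 0 in males and 1 in females.

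The genes whose levels most resembled a member were found by the correlation of log2 CPM over 24 kidneys after each group's mean was subtracted, for the 4 members with the smallest adjusted p. For Hoga1 they were Gm44386 (r = 0.81) and Dbp (r = 0.78), a transcription factor of circadian rhythm, for Slc26a1 Sncaip and Tmem178b (r = 0.71 for each), for Grhpr Atp5mpl and Dctpp1 (r = 0.89 for each), and for Hao2 Cldn1 (r = 0.73) and Aspg (r = 0.71). These values describe differences between mice of 1 group within the same libraries. They are the highest over all tested genes, and whether values this high arise by chance in such a search was not tested. The change of Dbp itself was 0.03 on the log2 scale in males (adjusted p = 0.970) and 0.00 in females (adjusted p = 0.999).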

How the data were processed

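RNA of 24 whole kidneys was analysed, 6 per group, with groups taken from the labels. Kidneys of a group came from different mice. The authors deposited 1 file per kidney with whole read counts per gene, without normalization. Per the submitters' processing notes, cutadapt 1.8, STAR 2.5.3a, HTSeq 0.9.1 and GRCm38 were used, and the strand setting of the counting is not given in the sources used here. Lines for reads not counted on a gene, which held 34.0% to 41.5% of all reads, were left out. Names, positions and exon lengths came from the GENCODE annotation of GRCm38, which held 55154 of the 55335 gene identifiers.
A gene was tested if any kidney reached 1 CPM. Quasi-likelihood tests came from edgeR 4.0.16 (R 4.3.3), after TMM scaling and with 1 model for the 4 groups. Benjamini-Hochberg adjustment covered both genotype comparisons jointly, whereas the interaction and the comparison of Ctrlf with Ctrlm were each adjusted alone. The threshold was 0.05. Standard errors were derived from the F statistic. RPKM is CPM per kilobase of merged exons. No pair of kidneys within a group looked like a repeated library (60 pairs, chi-square per degree of freedom at least 9.93). The fit was tested on simulated data.
The genes, lists and markers were chosen with earlier results of these data known. Named are the 10 genes, Pex5, Alb, genes sharing exons with them, in each pathway group the 3 genes with the smallest adjusted p past the threshold in each sex, and the 2 genes most correlated with each of 4 of the 10. Others are said to have been named after their values were seen, and the 9 proximal tubule markers and the hepatocyte genes past the threshold were named as members of fixed lists.
The alternatives were limma-voom (limma 3.58.1), DESeq2 1.42.0, RLE scaling, 2 other filters, only the groups compared, adjustment within each contrast, a replicate block, the level of 15 hepatocyte genes as a covariate, each kidney left out in turn and, chosen after Alb was seen, the 5 kidneys with over 200 CPM of it left out. Figures were drawn in matplotlib 3.10.9 under Python 3.11.15.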

Additional observations from a re-analysis of the deposited data

Results flagged for a closer look

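Among 40 sets of 6 kidneys (10 genes in 4 groups), 7 held a kidney far from the others by Dixon's criterion. Its nominal rate of about 1 in 20 assumes independent sets of normally distributed values. Agxt and Hao1 held few reads with some kidneys at 0, and the same kidneys recur across genes. The 7 sets therefore cannot be set against that rate. In cKOm mice, cKOm 4 was highest for Agxt at 0.733 CPM, with the next kidney at 0.274, and for Hao1 at 0.880 CPM, with the next at 0.0457. This kidney held 235 CPM of Alb. Ctrlf 2 was highest for Agxt at 0.354 CPM, with the next at 0.0959, and cKOf 2 for Hao1 at 0.140 CPM, which was 3 reads. In cKOf mice, cKOf 6 stood apart for 3 genes, with 103 CPM of Grhpr against at most 78.0 in the others, 8.08 CPM of Slc26a6 against at most 6.45, and 81.8 CPM of Prodh2 against at most 56.9.

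The genotype effect on Hoga1 differed between the sexes at the edge of the threshold, with a male minus female log2 fold change of -0.46 (edgeR interaction, adjusted p = 0.0469). The call was lost in 22 of 33 alternatives, 17 of which left out a single kidney, with adjusted p from 0.0120 to 0.150 over all of them.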

How the results depend on the processing

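The number of the 10 genes called in males was between 2 and 4 over 34 alternatives. Of the alternatives for single genes, 1255 of 1332 kept direction and side of the threshold. In females 1 gene was called with DESeq2 (Agxt2) and with only the groups compared (Hao2), and 0 to 1 when a kidney was left out. For the interaction 0 genes were called with limma-voom, with every gene with a count, with the hepatocyte covariate and without the 5 kidneys with most Alb, 0 to 1 when a kidney was left out, and fits of only the groups compared give no interaction. Between control sexes 5 genes were called with the covariate and 5 without these 5 kidneys. Pathway genes called in males fell to 12 without them, where fewer mice remained. Over all tested genes, calls in males went from 1456 to 850 with the covariate and to 599 without the 5 kidneys, and between control sexes from 2707 to 1776 and 1570. In females they went from 137 to 83 without the 5 kidneys and to 43 with adjustment within each contrast, and for the interaction from 372 to 574 with DESeq2.

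Replicate numbers did not pair the kidneys, since same-numbered kidneys correlated between -0.199 and 0.118 and 2 of 12 correlated best with their own number. With the replicate block, 0 genes were called for the interaction (Hoga1 adjusted p = 0.103), and 3, 0 and 8 in males, females and between control sexes.

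The male hepatocyte difference was -1.99 with Alb alone (exact permutation p = 0.117) and -2.67 to -1.82 with a kidney left out, and the female one 0.215 with Alb alone and -0.429 to 0.0343 with a kidney left out. Directions turned for changes that did not pass the threshold. The Hao1 interaction was 0.0479 with the covariate. The Pgp interaction was -0.0731 without the 5 kidneys, and it was -0.0558 to 0.110 and that of Hao2 -0.161 to 0.0227 with a kidney left out. In females, values with a kidney left out were -1.04 to 0.0925 for Agxt, -1.90 to 0.236 for Hao1 and -0.0145 to 0.152 for Grhpr. Hao1 between control sexes, which had passed, turned to 0.335 with the covariate. The cause of these shifts was not tested. At 0.0959 to 0.157 CPM per floor of 3 counts, depth limits Agxt and Hao1 alone.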
